A study of Mus musculus with 10 samples.

Results

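The aquaporins were examined in the uterus of HSD17B1TG and wild-type (WT) mice. Aquaporins are the channels that let water, and in some members glycerol, cross cell membranes. The members were 8 genes chosen by name, *Aqp1*, *Aqp3*, *Aqp4*, *Aqp5*, *Aqp7*, *Aqp8*, *Aqp9* and *Aqp11*, and all 8 were found among the 29268 genes of the count table. Uterine RNA was sequenced from 5 HSD17B1TG and 5 WT female mice aged 4 months, 1 library per mouse. Both groups were of the FVB/N strain. The HSD17B1TG mice were heterozygous for a transgene with the human HSD17B1 cDNA, which encodes the enzyme that turns estrone into the more active estradiol. A CMV-enhanced chicken beta-actin promoter drives the transgene in all tissues, so the enzyme was not limited to the uterus. According to the methods for uterine histology, the transgenic females are acyclic, and the stage of the estrous cycle was not matched among WT females. A difference between the groups and a difference between cycling and acyclic uteri cannot be told apart in these libraries. The mice are called TG1 to TG5 and WT1 to WT5 here.

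Aquaporins sit in the membrane as tetramers, and each subunit forms its own pore. AQP1, AQP2, AQP4, AQP5 and AQP8 mainly carry water, the aquaglyceroporins AQP3, AQP7 and AQP9 also carry glycerol, and AQP11 is a distant member found in membranes inside the cell. The uterus is known for hormone-driven movement of water: estrogen makes the rodent uterus swell and fill with fluid, and ion channels such as CFTR and the epithelial sodium channel set the salt gradients that water follows.

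The libraries held 14817228 to 23271988 counts on genes, and 3 counts in the library with the lowest total corresponded to 0.202 CPM. Limits of this kind cover counting error only. The table follows the mouse annotation, so the human transgene itself has no row and could not be used to check the labels. Levels below are the deposited FPKM, which are per length and so can be set side by side between genes. The fold changes come from edgeR's quasi-likelihood test on the raw counts, with p-values adjusted by Benjamini-Hochberg over all 16993 genes that passed a filter on low counts. In that fit 3.34% of genes were higher and 2.81% lower in HSD17B1TG at an adjusted p under 0.05, which was 568 and 478 genes. Scaling by total counts alone moved the median log2 fold change of all genes from 0.0021 to -0.17 and the calls to 404 higher and 791 lower, and upper quartile scaling gave 474 and 615. The direction of all 6 members tested was the same under each scaling. Of the 8 members, 6 passed the filter. *Aqp7* and *Aqp9* did not.

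*Aqp4* held a larger share of the aquaporin mRNA in the transgenic uteri, and the sum of that mRNA was higher there in a test that depended on single mice. The summed FPKM of the 8 members was 176 ± 24.6 (SD, n = 5) in HSD17B1TG and 94.03 ± 64.2 in WT, which differed by a two-sided exact permutation test on the log2 scale (p = 0.0317). When single mice were omitted, an alternative chosen after the data were seen, the exact p was under 0.05 in 6 of 10 cases and at most 0.0794, and it was above 0.05 without TG1, TG2, TG4 or TG5. The HSD17B1TG mice lay between 144 and 200.2. The WT mice spread from 29.6 in WT3 to 195 in WT5, so the groups overlapped through WT5. *Aqp1* was the leading aquaporin of all 5 WT mice, with 56.2% to 80.7% of the sum. In HSD17B1TG it held 76.9% in TG1 and 66.4% in TG4, but only 16.04% to 26.1% in the other 3 mice, in which *Aqp5* held 66.7% to 74.3%. *Aqp4* made up 5.61% ± 2.71 of the sum in HSD17B1TG and 0.519% ± 0.757 in WT (p = 0.0159, exact permutation test), and *Aqp11* 0.137% ± 0.0595 and 2.87% ± 4.24 (p = 0.0159). Both shares overlapped between the groups. For *Aqp4* TG1, at 1.24%, lay below WT3, at 1.86%, and for *Aqp11* TG5, at 0.221%, lay above WT4, at 0.159%. The exact p stayed under 0.05 in 10 of 10 cases with a mouse left out for the *Aqp4* share, and in 5 of 10 for the *Aqp11* share, which lost it when any of the 5 HSD17B1TG mice was left out (p up to 0.183). The shares of *Aqp1* (p = 0.127), *Aqp5* (p = 0.0873) and *Aqp8* (p = 0.0873) did not pass the same exact test. The 8 share tests were made on the percentages and are not adjusted for their number. The shares add up to a whole, so they do not move independently of each other.

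**Figure D1:**
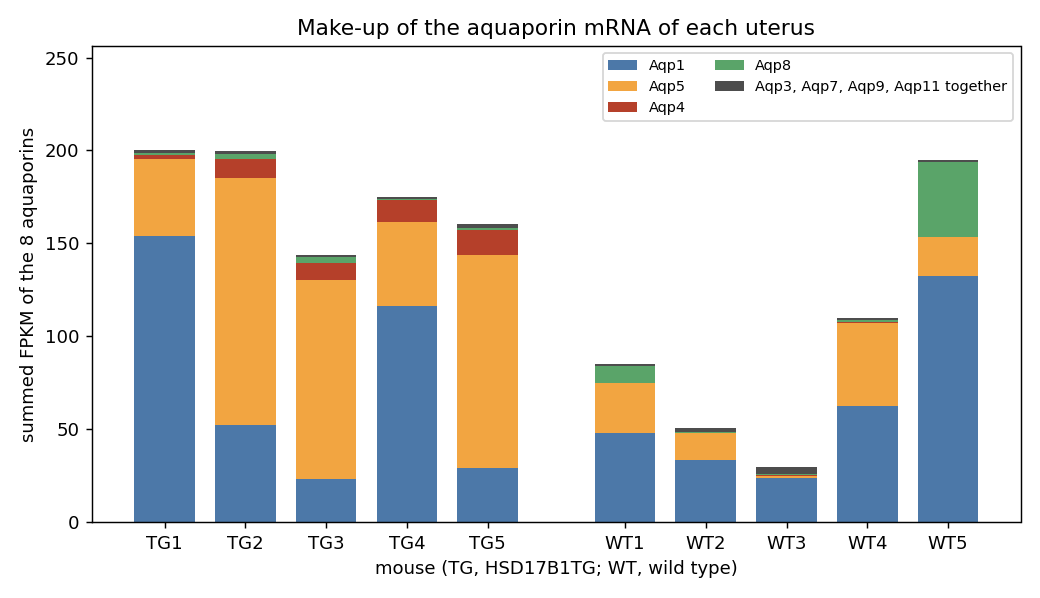
Bars show the summed FPKM of the 8 aquaporins in each mouse (vertical axis, FPKM; horizontal axis, mouse), coloured by gene. *Aqp1* is the largest part of every WT bar, whereas *Aqp5* is the largest part in TG2, TG3 and TG5; the *Aqp4* segment is visible in the 5 HSD17B1TG bars, and the *Aqp8* segment is widest in WT5.

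In order of mean level, *Aqp5* (88.2 FPKM) and *Aqp1* (74.95 FPKM) led in HSD17B1TG, followed by *Aqp4* (9.48), *Aqp8* (1.75), *Aqp3* (1.03), *Aqp11* (0.238), *Aqp7* (0.107) and *Aqp9* (0.101 FPKM). *Aqp5* exceeded *Aqp1* in 3 of 5 of these mice and *Aqp8* exceeded *Aqp3* in 3 of 5, so the order within these neighbouring pairs was not settled, and *Aqp7* exceeded *Aqp9* in 4 of 5. *Aqp4* lay above *Aqp8* and below *Aqp1* in all 5. In WT the order was *Aqp1* (60.03 FPKM), *Aqp5* (21.6), *Aqp8* (10.4), *Aqp11* (1.18), *Aqp3* (0.363), *Aqp4* (0.228), *Aqp9* (0.129) and *Aqp7* (0.0459 FPKM). *Aqp1* exceeded *Aqp5* in all 5 WT mice. *Aqp8* exceeded *Aqp11* in only 3 of 5, *Aqp3* exceeded *Aqp4* in 3 of 5, *Aqp4* exceeded *Aqp9* in 2 of 5, and *Aqp9* exceeded *Aqp7* in 3 of 5. *Aqp4* thus stood at rank 3 by mean in the transgenic uterus and at rank 6 in WT.

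*Aqp4* encodes the main water channel of brain astrocytes, which is also made in several epithelia. Its FPKM were 2.48, 10.2, 9.26, 11.98 and 13.5 in TG1 to TG5 and 0.128, 0.166, 0.549, 0.286 and 0.00961 in WT1 to WT5. Every HSD17B1TG mouse was above every WT mouse, and TG1 was the lowest of its group. The raw counts were 235 to 1068 in HSD17B1TG and 1 to 45 in WT, with the single count in WT5. *Aqp4* rose by a log2 fold change of 5.40 (SE 0.76, 95% interval 3.72 to 7.07, edgeR adjusted p = 0.0153). It also passed the study's further thresholds, more than a 2-fold change with a group mean above 1 FPKM, which 2.16% of the genes tested passed in this direction. With each mouse left out in turn, the log2 fold change lay between 5.06 and 5.98 and the call was kept in 10 of 10 fits. The gene (ENSMUSG00000024411) is placed at chr18:15389394-15403684 on the minus strand of GRCm38. GENCODE M21 of the same build lists an antisense gene, AC133525.2, over 598 of its bases, which has no row in the table. Whether the counting used strand is not given in the sources used here, so reads of that gene cannot be told from those of *Aqp4*.

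*Aqp5* encodes the apical water channel of secretory glands, and in the rodent uterus it is known from the epithelium. Its FPKM were 41.4, 133, 107, 45.1 and 114 in TG1 to TG5 and 27.1, 14.3, 1.05, 44.8 and 21.0 in WT1 to WT5. Of the HSD17B1TG mice 4 lay above every WT mouse, and TG1 lay below WT4. The lowest value was that of WT3, with 44 counts against 705 to 2405 in the other WT mice. The means were 88.2 ± 42.2 FPKM in HSD17B1TG and 21.6 ± 16.2 in WT (SD, n = 5), and the exact permutation test on log2(FPKM + 1) gave p = 0.0159. In edgeR the log2 fold change was 2.03 (SE 0.71, 95% interval 0.46 to 3.59) with an adjusted p of 0.103, so *Aqp5* did not pass over all genes. DESeq2's Wald test called it higher (adjusted p = 0.0232). In that test 7.31% of the genes with an adjusted p were higher and 5.64% lower. *Aqp5* (ENSMUSG00000044217) lies at chr15:99590782-99594829 on the plus strand.

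*Aqp2*, the vasopressin-regulated channel of the kidney's collecting duct, ends 6234 bases before *Aqp5* and is no member of the set of 8. Its counts were 5, 12, 12, 10 and 11 in TG1 to TG5 and 3, 0, 0, 0 and 2 in WT1 to WT5, so the groups did not overlap. In FPKM this was 0.412 ± 0.127 in HSD17B1TG and 0.0310 ± 0.0428 in WT. *Aqp2* did not pass the filter of the main fit. DESeq2 called it higher (log2 fold change 3.60, SE 0.88, adjusted p = 0.00142), and edgeR without the filter gave an adjusted p of 0.0615. The level was low: the highest *Aqp2* value, 0.498 FPKM, was below the *Aqp5* value of every mouse. *Aqp10-ps*, a pseudogene, was the only further aquaporin row, with 0 to 7 counts in HSD17B1TG and 2 to 10 in WT. *Mip*, *Aqp6* and *Aqp12* have no row in the table.

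*Aqp8* encodes a channel for water and ammonia that is known from the gut, liver and pancreas. Its FPKM were 0.916, 2.76, 3.43, 0.431 and 1.22 in TG1 to TG5 and 8.98, 0.599, 0.745, 1.13 and 40.6 in WT1 to WT5. The WT mean of 10.4 ± 17.2 FPKM rested on WT5 and WT1. The other 3 WT mice lay within the range of the HSD17B1TG mice. The fitted log2 fold change of -2.58 (SE 1.16, 95% interval -5.14 to -0.02, edgeR adjusted p = 0.190) was -0.73 without WT5, with an adjusted p of 0.664. A difference between the genotypes was therefore not shown for *Aqp8*.

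*Aqp1* encodes the water channel of red blood cells and of the endothelium of many vessels. It was abundant in both groups, with FPKM of 154, 52.1, 23.1, 116 and 29.2 in TG1 to TG5 and 47.8, 33.7, 23.9, 62.6 and 132 in WT1 to WT5. The groups covered the same range, and the highest mouse of each stood more than 5-fold above its lowest. The log2 fold change was 0.32 (SE 0.59, edgeR adjusted p = 0.778), and the 95% interval ran from -0.99 to 1.62.

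**Figure D2:**
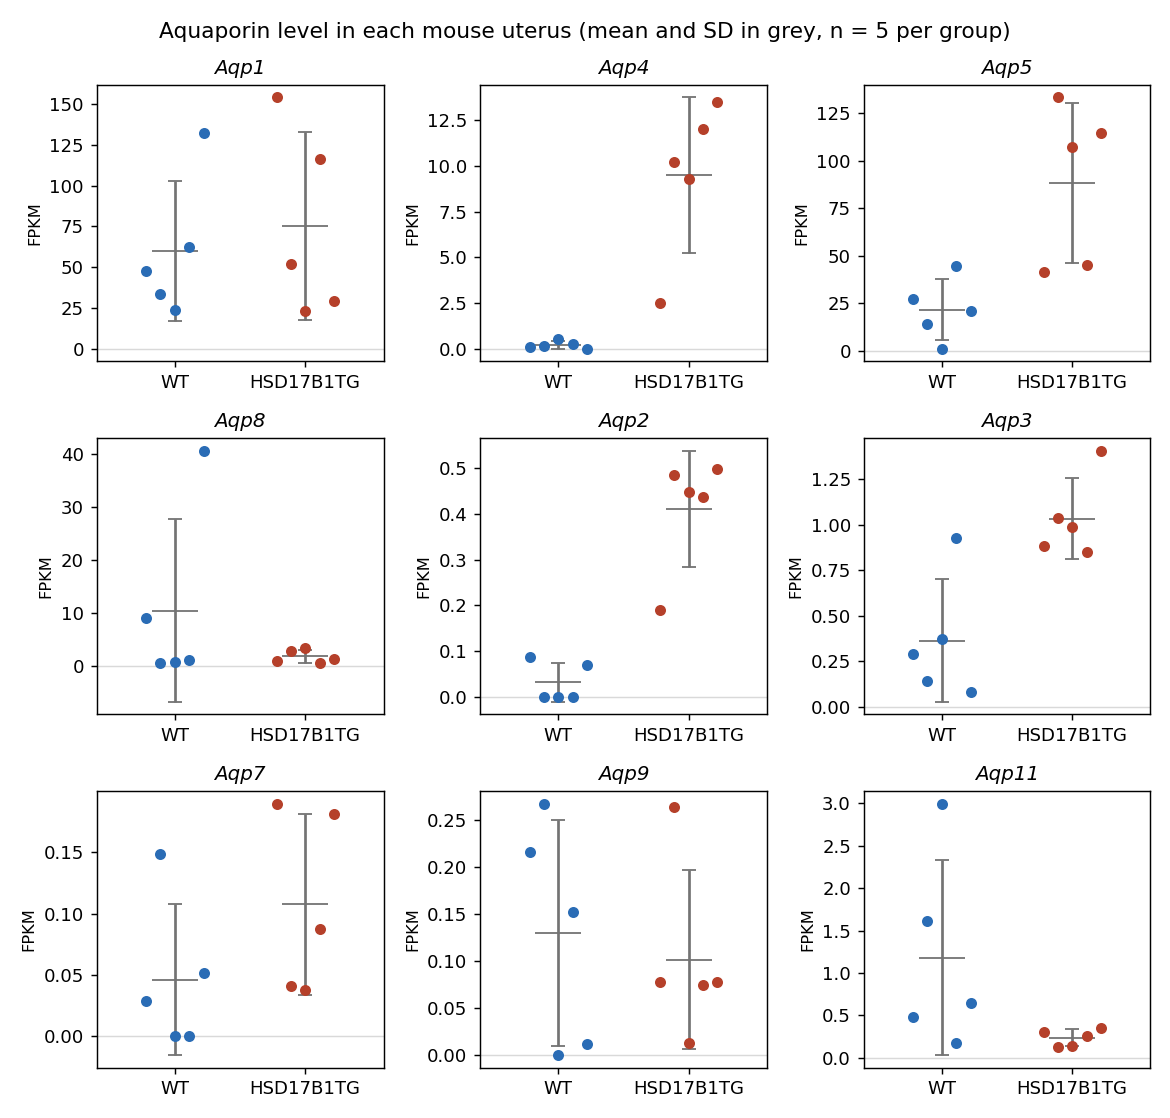
Points show the FPKM of each mouse (vertical axes, FPKM, scaled per gene) for the 8 aquaporins and *Aqp2* in WT (blue) and HSD17B1TG (red), with the mean and SD of the 5 mice in grey. *Aqp4* and *Aqp2* are separated between the groups, whereas *Aqp5*, *Aqp3* and *Aqp11* overlap at their edges; the WT mean of *Aqp8* rests on WT5 and WT1.

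Among the aquaglyceroporins, *Aqp3*, which is known from the basolateral side of epithelia and from the epidermis, had FPKM of 0.880, 1.04, 0.988, 0.848 and 1.41 in TG1 to TG5. The WT values were 0.289, 0.144, 0.373, 0.927 and 0.0801. WT4 lay among the HSD17B1TG mice and the other 4 WT mice below all of them. The exact permutation test on log2(FPKM + 1) gave p = 0.0238, and the log2 fold change of 1.498 (SE 0.55, 95% interval 0.28 to 2.72) had an edgeR adjusted p of 0.119. Without WT4 the log2 fold change was 2.20 and *Aqp3* was called (adjusted p = 0.0162). Its counts were low, 25 to 40 in HSD17B1TG and 3 to 35 in WT.

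*Aqp7*, the glycerol channel of fat cells, was near the limit of detection, with 2 to 10 counts in HSD17B1TG and 0 to 8 in WT (0.107 ± 0.0742 and 0.0459 ± 0.0615 FPKM, exact permutation p = 0.190). *Aqp9*, known from liver and from neutrophils, had 1 to 19 counts in HSD17B1TG and 0 to 22 in WT (0.101 ± 0.0949 and 0.129 ± 0.120 FPKM, exact permutation p = 0.714). Differences in these 2 genes were not detectable at this depth. *Aqp7* and *Aqp3* are neighbours on chromosome 4, with 44582 bases between them. An antisense gene, *Gm32511*, overlaps *Aqp9* and had 0 to 3 counts per mouse.

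*Aqp11* lay lower in all 5 HSD17B1TG mice than in 4 of the 5 WT mice. AQP11 is known from the endoplasmic reticulum of kidney and other cells. Its FPKM were 0.302, 0.134, 0.135, 0.263 and 0.355 in TG1 to TG5 and 0.479, 1.62, 2.996, 0.175 and 0.643 in WT1 to WT5. WT2 and WT3 were far above all other mice, whereas WT4 lay among the transgenic mice. The exact permutation test on log2(FPKM + 1) gave p = 0.0397, which was above 0.05 in 6 of 12 alternatives. The log2 fold change was -2.32 (SE 0.69, 95% interval -3.84 to -0.80, edgeR adjusted p = 0.0659). DESeq2 called *Aqp11* lower (adjusted p = 0.00535), and edgeR did so only without WT4 (-2.60, adjusted p = 0.0181). Without WT3 the log2 fold change was -1.64 (adjusted p = 0.152). The counts were 22 to 53 in HSD17B1TG and 34 to 455 in WT.

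Across the set, *Aqp4* was the single member called by the main test, against the 3.34% of all genes called higher. At an unadjusted p under 0.05 the fit listed 26.1% of all genes tested, and 5 of the 6 members that passed the filter were at that level, *Aqp3*, *Aqp4* and *Aqp5* higher and *Aqp8* and *Aqp11* lower. A gene can pass the filter through the group in which it is high, so nothing is read from that count. The FPKM of the groups did not overlap for 6.69% of the genes tested, and among the 6 members *Aqp4* was the only one.

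**Figure D3:**
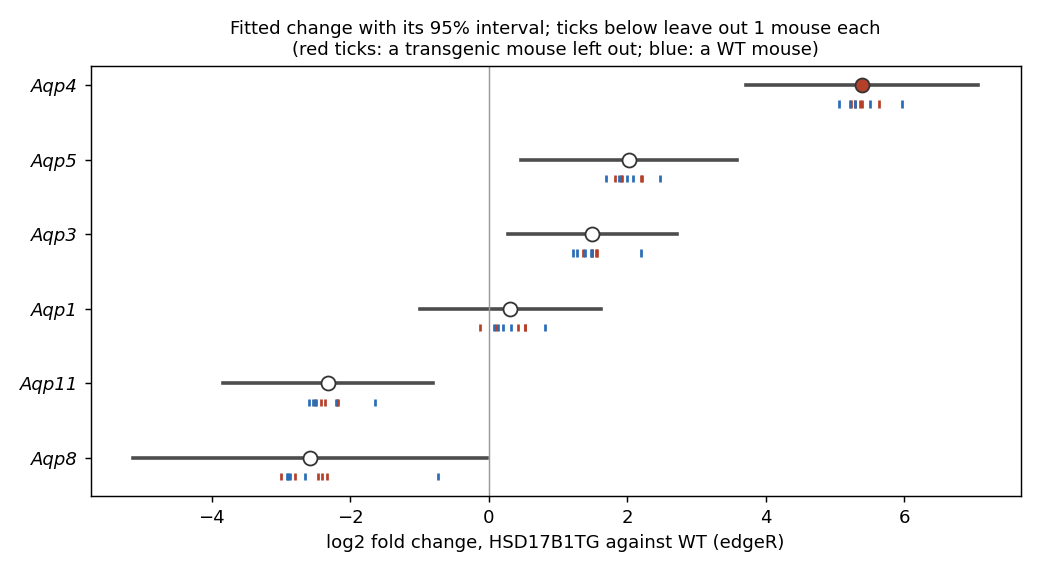
Circles show the edgeR log2 fold change of HSD17B1TG against WT (horizontal axis, log2) with its 95% interval for the 6 aquaporins that passed the filter, filled where the adjusted p was under 0.05, and ticks below show the fits without 1 mouse. The *Aqp4* ticks stay between 5.06 and 5.98, whereas 1 *Aqp8* tick, without WT5, lies at -0.73.

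The promoter windows of the members were searched for the letters of estrogen response elements, since the transgene's enzyme makes estradiol. RefSeq windows on GRCm38.p6, from 250 bases before to 50 after a start site, were at hand for 7 of the 8 members, all but *Aqp4*. The letters searched were GGTCA for one arm of the element, the same arm followed after 3 bases by its mirror TGACC for the full element (so each full element also counts as an arm), TGANTCA for AP-1, GGGCGG for SP1 and TATAAA for the TATA box, each on both strands. The full element was found in 0 of these 7 members and in 0.07% of all 32851 windows. Because *Aqp7* and *Aqp9* had 2 windows each, the members had 9 windows in all. The single arm was found in 5 of these 9, those of *Aqp5* and *Aqp11*, both of *Aqp7* and 1 of *Aqp9*, and in 40.5% of all windows. The *Aqp7* windows overlap and share 1 of these matches. By member the count was 4 of 7. The SP1 letters were in 3 of the 9 (*Aqp1*, *Aqp3* and *Aqp5*) and 35.7% of all windows, the TATA letters in that of *Aqp3* and 13.6%, and the AP-1 letters in 1 of *Aqp9* and 7.81%. The bases before the gene start of the table are shown, 5′ to 3′ along each gene, for *Aqp3*, *Aqp8* and *Aqp11*, whose fitted fold changes differed in sign though edgeR called none of them, with matches in capitals. The *Aqp3* stretch (chr4:41098184-41098433, minus strand) holds the SP1 letters 73 bases and the TATA letters 29 bases before the RefSeq start, the *Aqp11* stretch (chr7:97738290-97738497, minus strand) holds an estrogen arm on the other strand 230 bases before the RefSeq start, which lies inside the gene as the table places it, and the *Aqp8* stretch (chr7:123462044-123462290, plus strand) holds none of the letters searched.
Aqp3: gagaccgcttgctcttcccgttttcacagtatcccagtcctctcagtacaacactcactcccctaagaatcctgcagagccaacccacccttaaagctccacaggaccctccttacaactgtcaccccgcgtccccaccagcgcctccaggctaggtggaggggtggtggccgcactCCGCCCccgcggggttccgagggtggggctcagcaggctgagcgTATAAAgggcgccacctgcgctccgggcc
Aqp11: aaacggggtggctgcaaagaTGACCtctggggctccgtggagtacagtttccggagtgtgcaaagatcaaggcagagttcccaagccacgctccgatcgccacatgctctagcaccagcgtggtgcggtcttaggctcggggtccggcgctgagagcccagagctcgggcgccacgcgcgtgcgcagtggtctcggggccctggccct
Aqp8: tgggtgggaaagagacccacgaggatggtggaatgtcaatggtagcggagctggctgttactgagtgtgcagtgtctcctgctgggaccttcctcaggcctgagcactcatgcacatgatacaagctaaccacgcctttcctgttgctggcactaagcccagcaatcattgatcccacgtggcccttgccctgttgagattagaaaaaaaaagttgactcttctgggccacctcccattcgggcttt
A match of letters is a description and no evidence of binding, and no binding was measured in these libraries.

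Uterine tissue was sequenced with its cell types mixed, so fewer cells of a type and less RNA per cell cannot be told apart. Marker genes of the tissue's cell types were therefore measured beside the aquaporins. The 12 epithelial markers, among them *Epcam*, *Krt8*, *Krt18* and *Cdh1*, were all higher by mean in HSD17B1TG. Their summed level was 2359 ± 1033 FPKM (768 to 3590) in HSD17B1TG and 1016 ± 516 FPKM (542 to 1837) in WT (exact permutation p = 0.0556). The epithelial sum of TG1, 768 FPKM, was within the range of WT, and its *Aqp4* was 2.48 FPKM against at most 0.549 in WT. Stromal markers went the other way, with 1 of 10 higher by mean in HSD17B1TG and sums of 605 to 2321 FPKM against 2044 to 2511 FPKM in WT (p = 0.0238, exact permutation test). edgeR called 4 of the 10 lower, *Col3a1*, *Hoxa11*, *Pdgfra* and *Thy1*, against 2.81% of all genes. Of the other marker lists edgeR called 1 gene, the macrophage marker *Cd68*, which was higher (log2 fold change 1.58, SE 0.32, adjusted p = 0.0269). The 9 neutrophil markers in the table were low, and *Retnlg*, *Camp* and *Ngp* had at most 4 counts in any mouse. Only 4 passed the filter, and edgeR called 0 of these, with 1 at an unadjusted p under 0.05, whereas DESeq2 called 1 of the list. The summed levels of the 9 were 7.74 to 13.95 FPKM against 0.619 to 5.10 FPKM (exact permutation p = 0.00794, the smallest this test can give). The sums of endothelium (45.9 to 162 against 88.03 to 193 FPKM, 2 of 12 higher), smooth muscle (923 to 7695 against 451 to 6006 FPKM, 10 of 10 higher), adipocytes (4.75 to 125 against 0.397 to 25.3 FPKM, 8 of 8 higher), macrophages (246 to 459 against 220 to 392 FPKM, 6 of 9 higher), erythrocytes (22.8 to 106 against 32.4 to 158 FPKM, 2 of 7 higher) and oviduct and cilia (5.34 to 9.68 against 5.04 to 9.65 FPKM, 2 of 8 higher) overlapped between the groups. No marker of these lists was at 0 in every mouse.

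Per 10000 counts of the 12 epithelial markers, *Aqp4* had 71.0, 88.5, 74.1, 128 and 85.8 counts in TG1 to TG5 and 2.49, 4.46, 22.1, 3.35 and 0.417 counts in WT1 to WT5. The groups did not overlap, and the log2 difference of the ratios was 4.63 (exact permutation p = 0.00794). It was 4.00 to 5.29 with each mouse left out. *Aqp5* had 606, 593, 438, 247 and 372 counts per 10000 in HSD17B1TG and 269, 197, 21.6, 268 and 467 in WT. WT5, which had the lowest epithelial sum, had the highest *Aqp5* ratio of its group, and the log2 difference of 1.33 did not pass the exact test (p = 0.0794). *Aqp11* had 16.02, 2.16, 2.01, 5.23 and 4.18 counts per 10000 in HSD17B1TG and 17.3, 80.6, 223, 3.79 and 51.7 in WT (log2 difference -3.04, exact permutation p = 0.0476), a result above 0.05 in 9 of 12 alternatives.

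The ratio of *Aqp3* to the epithelial markers differed by 0.64 on the log2 scale (exact permutation p = 0.246) and that of *Aqp8* by -2.32 (p = 0.135). *Aqp1* over the endothelial markers differed by 0.96 (exact permutation p = 0.0873), *Aqp7* over the adipocyte markers by -0.55 (p = 0.643) and *Aqp9* over the neutrophil markers by -1.18 (p = 0.333). These 8 ratio tests are not adjusted for their number. Which cells carried each aquaporin was not measured. With the stromal markers as the reference, the log2 difference was 6.96 for *Aqp4*, 3.66 for *Aqp5* and 2.97 for *Aqp3* (exact permutation p = 0.00794 each), 0.013 for *Aqp8* (p = 0.992) and -0.71 for *Aqp11* (p = 0.397). The size thus depended on the reference for each of these members, *Aqp4* included. The side of 0.05 depended on it for *Aqp3*, *Aqp5* and *Aqp11*. The part of the tissue's make-up and of the cycle in the levels of *Aqp4* and the other members was not tested.

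**Figure D4:**
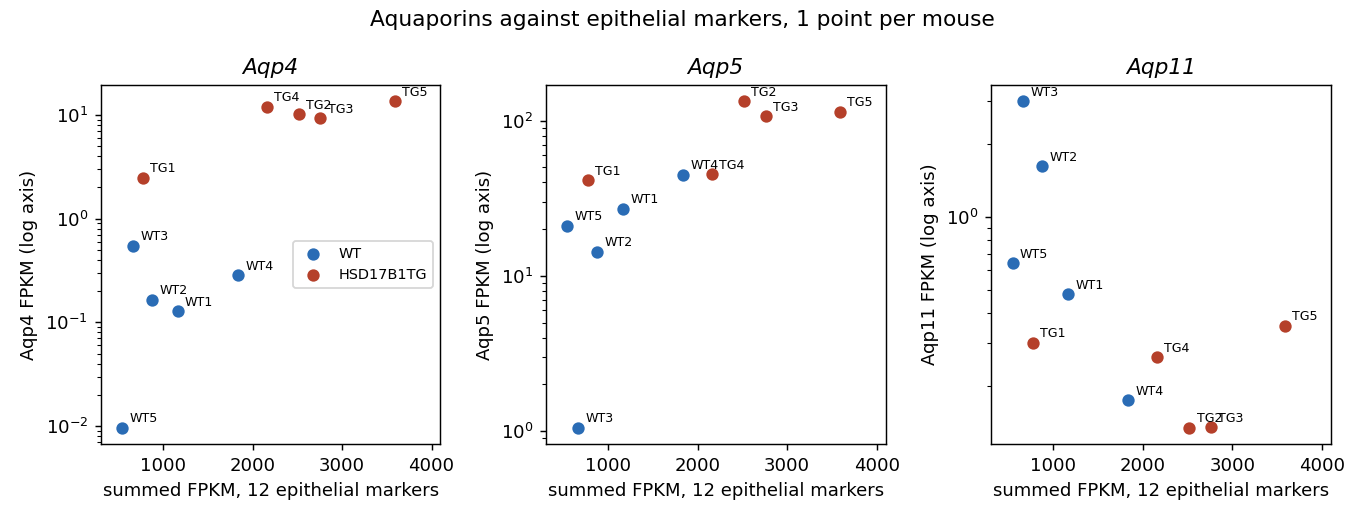
Each point is 1 mouse, with the summed FPKM of 12 epithelial markers on the horizontal axis and the FPKM of *Aqp4*, *Aqp5* or *Aqp11* on the vertical log axis. TG1 has an epithelial sum of 768 FPKM, inside the WT range, and 2.48 FPKM of *Aqp4*; WT3 is lowest for *Aqp5* and highest for *Aqp11*.

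Genes that move salt and glycerol alongside water were then listed. Of 31 genes of epithelial salt and fluid transport, 27 passed the filter, and 18 were higher and 9 lower by fold change, with a median of 0.55 on the log2 scale against 0.0021 over all genes tested. edgeR called 1 of the 27 higher and 1 lower, against 3.34% and 2.81% of all genes, so these edgeR counts are near the background. DESeq2 called 8 higher and 2 lower of the 28 with an adjusted p, against 7.31% and 5.64% of all such genes. *Clca1*, a secreted modulator of calcium-activated chloride channels, had 429 to 4299 FPKM in HSD17B1TG and 2.82 to 299.6 FPKM in WT, with no overlap, and rose (log2 fold change 4.68, SE 1.15, adjusted p = 0.0424). *Ano1*, such a chloride channel itself, fell from a mean of 13.8 FPKM in WT to 2.45 FPKM, by 2.50 on the log2 scale (SE 0.51, adjusted p = 0.0260). WT4, at 2.56 FPKM, lay among the HSD17B1TG mice, which had 2.02 to 3.60 FPKM. With each mouse left out in turn, *Clca1* was called in 3 and *Ano1* in 4 of 10 fits.

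*Cftr*, the chloride channel of fluid secretion, was at 3.33 to 13.6 FPKM in HSD17B1TG and 0.112 to 10.97 FPKM in WT (log2 fold change 0.87, SE 0.85, edgeR adjusted p = 0.558). Of the epithelial sodium channel's subunits, *Scnn1a* had a log2 fold change of -0.91 (SE 0.58, adjusted p = 0.347) and *Scnn1b* one of -0.14 (SE 0.70, adjusted p = 0.923). *Scnn1g* had no count in 7 of the 10 mice and at most 11, and did not pass the filter. A difference in these channels was not shown.

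Of 15 genes of glycerol handling, 14 passed the filter, 11 higher and 3 lower (median 0.55), and edgeR called 3 higher, *Gpd1*, *Lipe* and *Pnpla2*, against 3.34% of all genes. *Gpd1*, which makes glycerol 3-phosphate, had 6.98 to 37.1 FPKM in HSD17B1TG and 1.70 to 10.4 in WT (log2 fold change 2.16, SE 0.52, adjusted p = 0.0413). *Lipe*, the hormone-sensitive lipase, had 7.33 to 31.4 against 2.69 to 5.26 FPKM (1.92, SE 0.37, adjusted p = 0.0234). *Pnpla2*, the first lipase of triglyceride breakdown, had 29.0 to 53.4 against 14.5 to 24.3 FPKM (1.10, SE 0.23, adjusted p = 0.0277). These genes are highly expressed in fat cells, and the adipocyte marker sum was 125 FPKM in TG4 against 4.75 to 22.6 FPKM in the other HSD17B1TG mice. The highest mouse for each of the 3 genes was TG5, whose adipocyte sum was 5.86 FPKM. Without TG4 *Lipe* was still called (log2 fold change 2.01, adjusted p = 0.0498) and *Gpd1* (2.19, adjusted p = 0.0740) and *Pnpla2* (1.02, adjusted p = 0.0633) were not. That fit called 99 genes higher and 72 lower in all, and the 3 log2 fold changes were close to those with TG4. The part of fat cells in these levels was not tested. *Gpd1* was called in 3 of the 10 fits with a mouse left out, and *Lipe* and *Pnpla2* in 4 each. Of the glycerol channels themselves, *Aqp7* and *Aqp9* showed no detectable difference, and *Aqp3* was higher in the exact test of levels (p = 0.0238) but not called by edgeR.

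Of 16 genes that anchor or regulate aquaporins, such as *Dag1*, which encodes dystroglycan, 13 passed the filter, 8 higher and 5 lower (median 0.26). edgeR called 0 of them and DESeq2 also 0, and 5 had an unadjusted p under 0.05 in edgeR. The same count was 15 of 27 for salt and fluid transport, 6 of 14 for glycerol handling and 2 of 13 for vasopressin, osmotic and urea transport, against 26.1% of all genes tested. Of 18 genes of vasopressin, osmotic and urea transport, 13 passed, 11 higher and 2 lower (median 0.17), and 1 was called. This was *Slc14a1*, a urea channel, at 48.0, 21.9, 20.2, 42.6 and 45.2 FPKM in TG1 to TG5 and 7.93, 3.36, 1.41, 8.80 and 3.23 FPKM in WT1 to WT5. The groups did not overlap, and the log2 fold change was 2.85 (SE 0.49, adjusted p = 0.0198, called in 7 of 10 fits with a mouse left out). The members of all 4 lists were chosen with earlier results of these data known, and a median near that of all genes is not a result about a list.

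**Figure D5:**
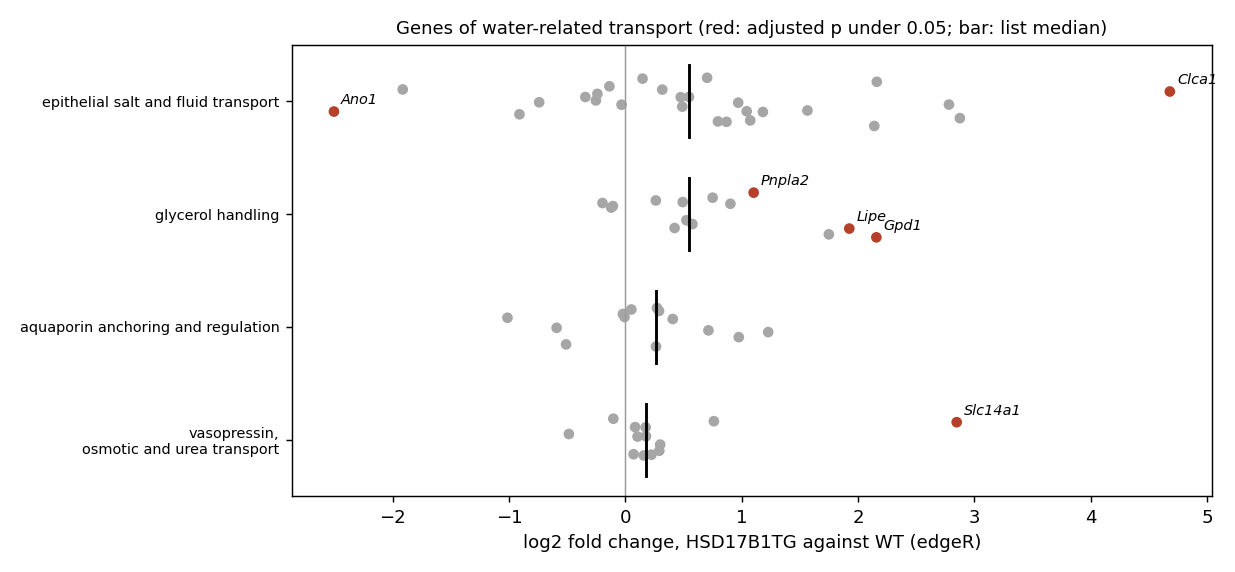
Points show the edgeR log2 fold change of HSD17B1TG against WT (horizontal axis, log2) of the tested genes of the 4 lists, red where the adjusted p was under 0.05, with the list median as a bar. *Clca1* lies farthest right at 4.68 and *Ano1* farthest left at -2.50; the list medians lie between 0.17 and 0.55.

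Within the groups the members followed different genes. Likeness was measured as Pearson's r of log2 CPM over the 10 mice after each group's mean was subtracted, and the 3 protein-coding genes with the highest r are given for each member as a description. The mice share library preparation and depth with all genes, and a maximum over all genes tested is high in any such search. *Aqp1* went with *Plcb4* (r = 0.977, Spearman's rho = 0.915), *Rspo1* (0.966) and *Slc6a8* (0.964). *Aqp5* went with *Map6* (r = 0.983, rho = 0.988), *Mycn* (0.978) and *Lgals12* (0.973). *Aqp11* went with *L3hypdh* (r = 0.982, rho = 0.988), *Cryzl2* (0.969) and *Tex15* (0.964). *Aqp4* went with *Ddt* (r = 0.930, rho = 0.503), *B3gnt7* (0.929) and *Aldh1l1* (0.928). For *Ddt* rho was far below r. *Aqp3* went with *Rab27a* (r = 0.957), *Snapc2* (0.949) and *Atp5c1* (0.927), and *Aqp8* with *Zfpl1* (0.899), *Slc13a2* (0.878) and *Mkl1* (0.875). Among the members themselves, the within-group r was -0.82 for *Aqp5* and *Aqp11*, -0.70 for *Aqp1* and *Aqp4* and 0.67 for *Aqp3* and *Aqp4*, again over 10 mice and as a description. In WT5 *Aqp4* had 1 count and *Aqp3* had 3, near the count limit. The weight of that mouse in the r values of *Aqp4* and *Aqp3* was not tested.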

How the data were processed

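RNA of uterine tissue from 5 HSD17B1TG and 5 WT mice was measured by paired-end RNA-seq. Per the labels and the study's methods, the authors mapped reads with HISAT2 2.0.5 to the mouse genome (GRCm38, Ensembl annotation) and deposited 1 table of raw counts per gene. How reads were counted, with which program and whether by strand, is not given in the sources used here. The FPKM deposited beside the counts use the gene length, in bases, that the authors' table gives, and 1 scaling number per mouse proportional to a DESeq2 size factor, not to that mouse's own total. The authors' fold changes, p-values and enrichment tables were not used.

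Mice were grouped by the genotype in the labels, which name no batch or pairing. Nothing in the labels says that the mice came from separate litters. The main test was that of edgeR 4.0.16 under R 4.3.3 (filterByExpr, TMM, quasi-likelihood test, Benjamini-Hochberg over 16993 genes). Single values were tested with two-sided exact permutation tests over the 252 assignments of 10 mice, of which 0.00794 is the smallest p possible. Levels used log2(FPKM + 1), which understates the change of low genes, shares of the summed FPKM used the percentages themselves, and ratios used log2 of counts with 0.5 added to the member's count. Alternatives were DESeq2 1.42.0, limma 3.58.1 (voom, and log2(FPKM + 1) or log2(FPKM + 0.1)), other normalizations and filters, log2 CPM with a prior count of 2, other marker references and each mouse left out, for the summed level and shares added after the data were seen. The fits were tested on simulated counts.

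The members and all gene lists were chosen with earlier results of these data known. Genes named by a rule are the 8 members, other aquaporins in the table, the called genes of each transport list (at most 6 by smallest p), *Cftr* and the *Scnn1* subunits, and the 3 protein-coding genes most like each tested member. Outside that rule, some cell type markers, genes that overlap a member and *Dag1*, as an example of its list, are named. The genes under the other observations were chosen after their values were seen. Gene positions are those of the table. For 7 of the 8 members GENCODE M21 gives the same coordinates, and for *Aqp4* it does not. Promoter windows come from RefSeq on GRCm38.p6.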

Additional observations from a re-analysis of the deposited data

Results flagged for a closer look

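*Aqp8* in WT stood out because 1 mouse lay far from the others of its group. WT5 had 40.6 FPKM, the next mouse, WT1, had 8.98 FPKM, and the other 3 had 0.599 to 1.13 FPKM, so the gap to the nearest mouse was 0.790 of the group's range. WT5 also had the lowest epithelial marker sum, 542 FPKM, and the highest *Aqp1* level of WT, 132 FPKM.

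*Aqp9* in HSD17B1TG was flagged for the same reason. TG2 had 0.264 FPKM, from 19 counts, and the other 4 mice had 0.0128 to 0.0777 FPKM, a gap of 0.741 of the range. In normally distributed values a gap past the limit used, 0.71 of the range, arises in about 1 of 20 groups, and 16 groups of 5 mice were looked at. FPKM near the count limit need not be so distributed, and that was not tested.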

How the results depend on the processing

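The call of *Aqp4* was kept in all 20 alternative fits (adjusted p 5.94e-13 to 0.0434, log2 fold change 2.96 to 6.25, the lowest on log2(FPKM + 1)), and it kept the study's further thresholds. The number of members called, 1 in the main fit, was 3 with DESeq2 (*Aqp4*, *Aqp5*, *Aqp11*), 3 with voom and sample quality weights (*Aqp3*, *Aqp4*, *Aqp5*) and 1 to 3 with each mouse left out, 3 without WT4 (*Aqp3*, *Aqp4*, *Aqp11*). The 4 members past 0.05 in the permutation tests of levels were 3 to 4 with each mouse left out, and the 2 past it as ratios to marker sums were 1 to 3; *Aqp4* was among them in each. *Aqp1* changed sign with a mouse left out, in the fit (-0.12 to 0.81) and as a level (-0.15 to 0.54), as did the *Aqp9* level (-0.084 to 0.0094). The *Aqp8* ratio was 0.013 on the log2 scale with stroma as the reference. With DESeq2 the 1 other aquaporin with an adjusted p was called, against 0 in the main fit, which did not test it. For salt and fluid transport the calls were 10 of 28 against 2 of 27, and for glycerol handling 5 of 15 against 3 of 14. Of all genes with an adjusted p, DESeq2 called 7.31% higher and 5.64% lower. Over all genes, 568 higher and 478 lower calls became 1587 and 1224 with DESeq2, 1965 and 1318 with quality weights, 382 and 461 without a filter, 550 and 278 with voom, and, with a mouse left out, between 45 and 63 without WT2 or 46 and 30 without TG5 and 1335 and 1052 without WT4. The causes were not tested. No paired analysis was possible because the labels do not say that the numbers in the mouse names pair mice across the groups. The results of *Aqp7*, *Aqp9* and *Aqp2* rest on few counts, under 25 for each gene in every mouse.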

Other observations

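Further genes of the salt and fluid list, chosen here after their values were seen, were called by DESeq2 and not by edgeR. *Slc26a9*, an epithelial chloride transporter, had 5.96 to 20.4 FPKM in HSD17B1TG and 0.0356 to 2.63 FPKM in WT, so the groups did not overlap (edgeR log2 fold change 2.87, SE 0.85, adjusted p = 0.0652, DESeq2 adjusted p = 0.00485). *Slc26a4*, the anion exchanger pendrin, had 1.501 to 12.7 FPKM and 0.0508 to 2.51 FPKM (2.78, SE 0.95, adjusted p = 0.0977 in edgeR and 0.0120 in DESeq2). *Atp1b1*, a subunit of the sodium pump, had 6.77 to 13.03 FPKM in HSD17B1TG and 9.57 to 97.5 FPKM in WT (-1.91, SE 0.57, adjusted p = 0.0668 in edgeR and 0.00842 in DESeq2). Its highest value was in WT3, the mouse that was also highest for *Aqp11* and lowest for *Aqp5*.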
